A study of Xenopus tropicalis with 15 samples.

Results

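The genes kcnk2, chrna4, gng4, stk39, tmem25, sgcb, cavin4 and aig1 are described here in blood cells of Xenopus tropicalis across 5 conditions. They are 8 of the 26531 genes in the deposited count table and were selected on their measured values. The selection took lower levels with erythropoietin (EPO) than without it at 4.0 h, in counts scaled for library depth. Total peripheral blood cells of wild-type frogs were taken from the heart. They were harvested fresh, or after 1.5 h or 4.0 h of culture in 7/9-strength IMDM with 10% fetal calf serum. The medium held no EPO (control) or 1 ng/mL of X. tropicalis EPO made in E. coli. Each of the 5 groups holds 3 libraries made with Lasy-Seq, a 3' RNA-seq method, called biological replicates in the labels without naming the animals, so each p-value rests on the spread among these samples, which may be technical.

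Red cell production is driven by the hormone EPO, which acts through its receptor, the kinase JAK2 and the transcription factor STAT5. The red cells of frogs are nucleated, and total blood also contains thrombocytes and white cells. In such bulk samples, fewer cells of a type and less RNA per cell cannot be told apart. Of the picked genes, kcnk2 encodes a tandem-pore potassium channel that carries a background potassium current and responds to membrane stretch and lipids. The gene chrna4 encodes an alpha subunit of nicotinic acetylcholine receptors, which are cation channels opened by acetylcholine. The gene gng4 encodes a gamma subunit of heterotrimeric G proteins, and stk39 encodes SPAK, a kinase that WNK kinases switch on and that regulates cation chloride cotransporters and thereby cell volume. A transmembrane protein of the immunoglobulin superfamily is encoded by tmem25, and beta-sarcoglycan, part of the dystrophin-associated complex of muscle, by sgcb. The gene cavin4 encodes a coat protein of caveolae known from mammalian muscle, and aig1 a membrane enzyme that, in mammals, hydrolyses fatty acid esters of hydroxy fatty acids. Only kcnk2 and chrna4 encode channel proteins, and the product of stk39 is a soluble kinase, so the 8 genes form no single family or pathway. All 8 matched a protein-coding gene of the RefSeq table of assembly UCB_Xtro_10.0, on 6 different chromosomes, and none lies next to another of them.

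The libraries held between 1329340 and 6351053 counts. The mean total was 1825390 in fresh cells, 2773121 and 3124469 in control culture at 4.0 h and 1.5 h, and 4783671 and 5206992 with EPO at 4.0 h and 1.5 h. Depth therefore differed between the groups. Levels are given as CPM, the count of a gene scaled to a fixed library total, here after TMM scaling for composition. In a single library 3 counts corresponded to between 0.455 and 2.21 CPM, a limit for counting error alone, since amplified reads that carry no molecular identifier need not be separate molecules. The label of blood cells was checked on 12 erythroid markers, of which 10 were in the table and all 10 were detected, with a summed level of 351063 to 454368 CPM per library. Most of this sum came from the globin genes hba1 and hbg1, at means of 232011 and 169399 CPM in fresh cells. The least abundant of the 10, tfrc, averaged 5.09 CPM there.

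The contrast that chose the genes was EPO against control at 4.0 h, and its values are given as a description only. In a fit on all 15 libraries, 12 of 8939 genes (0.134%) were lower with an adjusted p below 0.05, and 8 of these 12 are the genes described here. Of the remaining 4, 3 carry a locus identifier in place of a gene symbol and 1 is the homeobox gene six3. The picked gene nearest the threshold was gng4 (log2 fold change -0.98, adjusted p = 0.0414 by edgeR's quasi-likelihood test). The first gene outside it among those with a gene symbol was azin2, an antizyme inhibitor gene (-2.43, adjusted p = 0.0505 by the same test). The log2 fold changes of the 8 genes at 4.0 h ran from -1.60 for tmem25 to -0.84 for aig1, with a median of -0.98 against 0.00279 over all genes tested. For all 8 genes the 3 EPO libraries lay below the 3 control libraries, as they did for 7.85% of all genes, and nothing is read from this because the rule used these values.

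The channel gene kcnk2 stood at 339, 221 and 251 CPM in the fresh libraries (replicates 1, 2 and 3). In control culture it stood at 138, 104 and 164 CPM at 1.5 h and at 175, 176 and 188 CPM at 4.0 h. With EPO it stood at 94.5, 77.6 and 85.8 CPM at 1.5 h and at 113, 82.2 and 78.1 CPM at 4.0 h. Fresh cells were above every cultured library, control culture at 4.0 h was above control culture at 1.5 h without overlap, and the EPO groups overlapped each other. The receptor subunit gene chrna4 stood at 120, 64.6 and 79.5 CPM in fresh cells. It stood at 52.8, 77.6 and 62.9 CPM in control culture at 1.5 h, and at 72.4, 51.2 and 86.1 CPM at 4.0 h. With EPO its level was 34.0, 34.9 and 31.3 CPM at 1.5 h, and 40.8, 23.5 and 35.5 CPM at 4.0 h. Fresh cells and both control groups overlapped for chrna4, and all 6 EPO libraries lay below all 9 others.

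The signalling genes were gng4 and stk39. The G protein subunit gene gng4 had levels of 62.8, 51.6 and 56.1 CPM in fresh cells. In control culture the level was 31.4, 42.9 and 54.1 CPM at 1.5 h and 55.1, 53.3 and 68.0 CPM at 4.0 h. With EPO it had 36.7, 33.5 and 29.5 CPM at 1.5 h and 38.1, 20.9 and 28.8 CPM at 4.0 h. It was the 1 gene of the 8 whose mean was highest in control culture at 4.0 h (58.8 CPM, against 56.8 ± 5.62 CPM in fresh cells, SD, n = 3), and every neighbouring pair of groups in its order overlapped. The kinase gene stk39 had levels of 37.7, 41.6 and 33.9 CPM in fresh cells. In control culture the level was 28.4, 24.2 and 31.4 CPM at 1.5 h and 25.7, 27.6 and 44.8 CPM at 4.0 h. With EPO it had 14.7, 19.2 and 20.5 CPM at 1.5 h and 12.4, 13.1 and 16.7 CPM at 4.0 h. All EPO libraries were again below all others for stk39, and control replicate 3 at 4.0 h stood well above the other 2 of its group.

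Among the membrane and caveolar genes, tmem25 had the lowest counts, from 14 to 86 per library. Its level was 51.7, 21.7 and 29.8 CPM in fresh cells. In control culture the level was 14.4, 18.0 and 21.5 CPM at 1.5 h and 19.6, 26.4 and 41.3 CPM at 4.0 h. With EPO it was 8.92, 10.7 and 9.50 CPM at 1.5 h and 13.4, 6.09 and 8.03 CPM at 4.0 h. Fresh replicate 1 and control replicate 3 at 4.0 h were high, and no EPO library reached the lowest other one. The sarcoglycan gene sgcb averaged 106 ± 27.9 CPM in fresh cells, and in control culture 72.6 ± 13.5 and 77.7 ± 10.0 CPM at 1.5 h and 4.0 h, and 48.7 ± 2.84 and 41.2 ± 4.31 CPM with EPO (SD, n = 3). It was the only 1 of the 8 genes whose EPO groups did not overlap, being lower at 4.0 h. The caveolar gene cavin4 averaged 88.7 ± 4.48 CPM in fresh cells, and in control culture 62.3 ± 12.8 and 69.7 ± 4.11 CPM, and 43.4 ± 4.91 and 38.0 ± 8.39 CPM with EPO, in the same order of times. For these 2 genes all EPO libraries lay below all others. For cavin4 the margin was narrow at 1.5 h, with EPO replicate 1 at 49.0 and control replicate 2 at 49.1 CPM. The hydrolase gene aig1 stood at 407, 230 and 268 CPM in the fresh libraries, at 210, 179 and 188 CPM in control culture at 1.5 h, and at 212, 178 and 280 CPM in control culture at 4.0 h. With EPO it stood at 137, 143 and 126 CPM at 1.5 h and at 135, 121 and 117 CPM at 4.0 h. Fresh replicate 1 was far above the other fresh libraries for aig1, and no EPO library reached a library of any other group. Such separations of all EPO libraries from all others, here and for the genes above, include the 4.0 h libraries that chose the genes. Their share over all genes was not counted, so nothing is read from them.

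**Figure D1:**
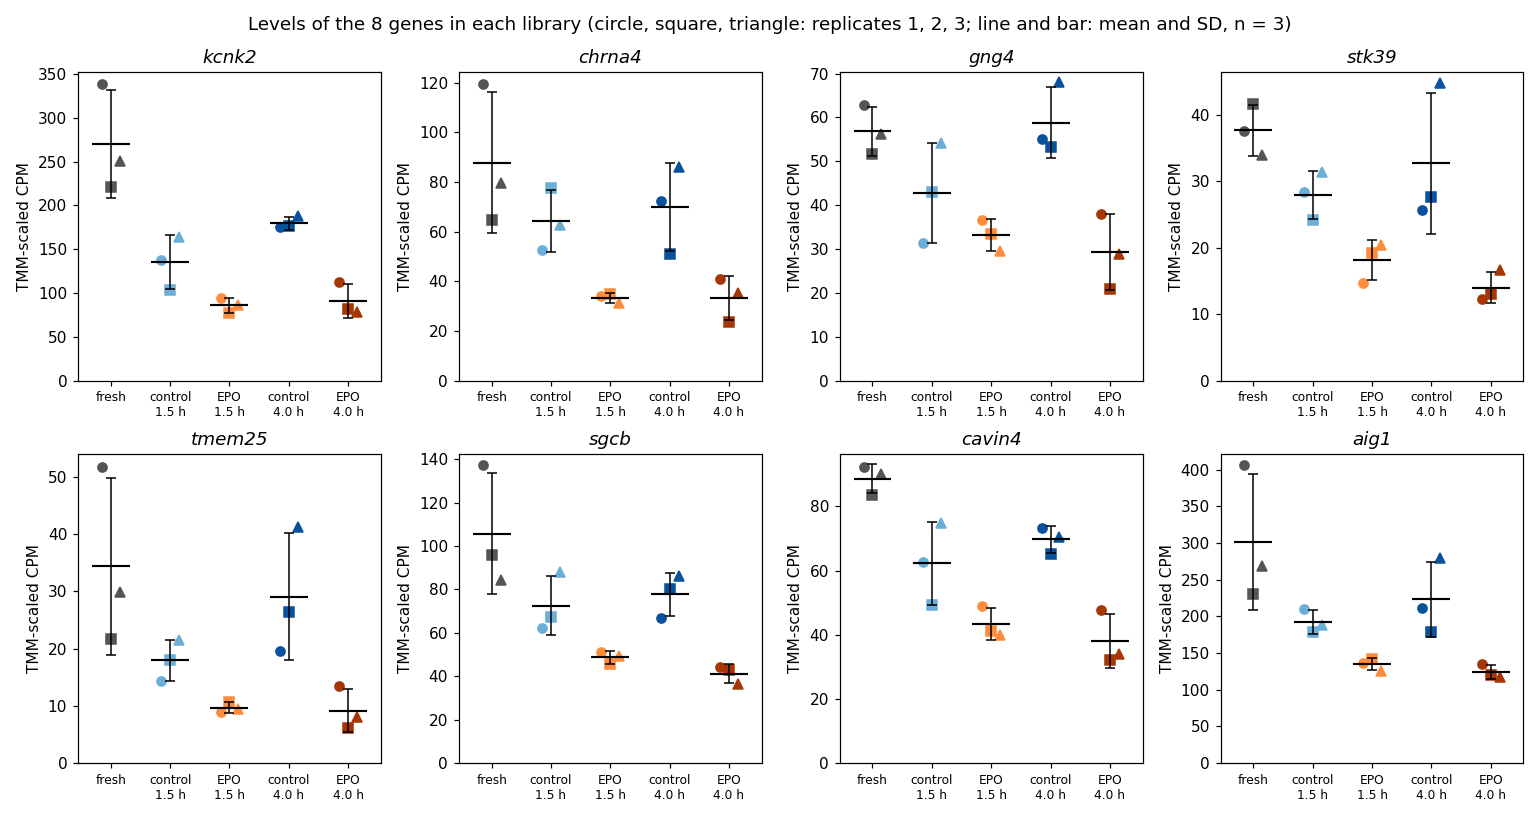
Level of each gene in TMM-scaled CPM (y axis, from 0) in the 15 libraries, by group (x axis); symbols mark replicates, lines and bars the mean and SD of 3 libraries. In 6 of the 8 panels the group means fall from fresh cells through control at 4.0 h and 1.5 h to EPO at 1.5 h and 4.0 h.

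The order of the groups was shared by most of the genes. For 6 of the 8 it ran from fresh cells, through control culture at 4.0 h and control culture at 1.5 h, to EPO at 1.5 h and EPO at 4.0 h. The exceptions were kcnk2, with EPO at 1.5 h lowest, and gng4, with control culture at 4.0 h highest. Of all 8939 genes, 3.46% had that order. The choice of the genes helped to set the places of both 4.0 h groups in it, and the order is close to that of the rising mean library totals, from which it differs in the order of the EPO groups. The order of kcnk2 was that of the rising mean totals itself, 1 of the 8 genes beside 2.71% of all genes. As a share of the fresh mean, the 8 genes had a median of 69.4% in control culture at 1.5 h and 79.1% at 4.0 h. With EPO the median was 45.4% of the fresh mean at 1.5 h and 38.4% at 4.0 h.

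EPO against control at 1.5 h compares libraries other than the 4.0 h libraries of the choosing contrast. The choosing fit still took its scaling and its estimate of spread from all 15 libraries. The 1.5 h libraries were therefore not wholly apart from the choice, which favours genes with a small spread in them too. The comparison at 1.5 h was fitted on the 9 fresh and 1.5 h libraries only. In this comparison chrna4 fell with EPO from 64.4 ± 12.5 to 33.4 ± 1.87 CPM (SD, n = 3), or 1.94-fold. Its log2 fold change was -0.96 with an SE of 0.213 (adjusted p = 0.0325 by edgeR's quasi-likelihood test). It was the 1 gene of the 8 that passed, where 8 of 7678 genes (0.104%) were called lower. The estimates of all 8 genes were negative, with a median of -0.60, while 51.9% of all genes were negative with a median of -0.018. The remaining 7 did not pass, with log2 fold changes between -0.89 for tmem25 and -0.37 for gng4 (edgeR adjusted p between 0.172 and 0.785). At an unadjusted p of 0.05, 7 of the 8 passed, as did 545 of all 7678 genes. The EPO libraries lay wholly below the control libraries for 7 of the 8 genes, all but gng4, against 6.81% of all genes.

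With the replicate number as a block, 3 of the 8 genes passed at 1.5 h, against 0.417% of all genes. They were chrna4 (-0.96, adjusted p = 0.00316), kcnk2 (-0.64, adjusted p = 0.00422) and aig1 (-0.50, adjusted p = 0.0369), by edgeR's quasi-likelihood test. The call of chrna4 rested on most of the libraries. Without control replicate 2 or 3, or EPO replicate 1, 2 or 3, its edgeR adjusted p was 0.287, 0.115, 0.132, 0.103 and 0.188, while its log2 fold change stayed between -0.99 and -0.78. The estimate of gng4 became -0.17 without control replicate 3.

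**Figure D2:**
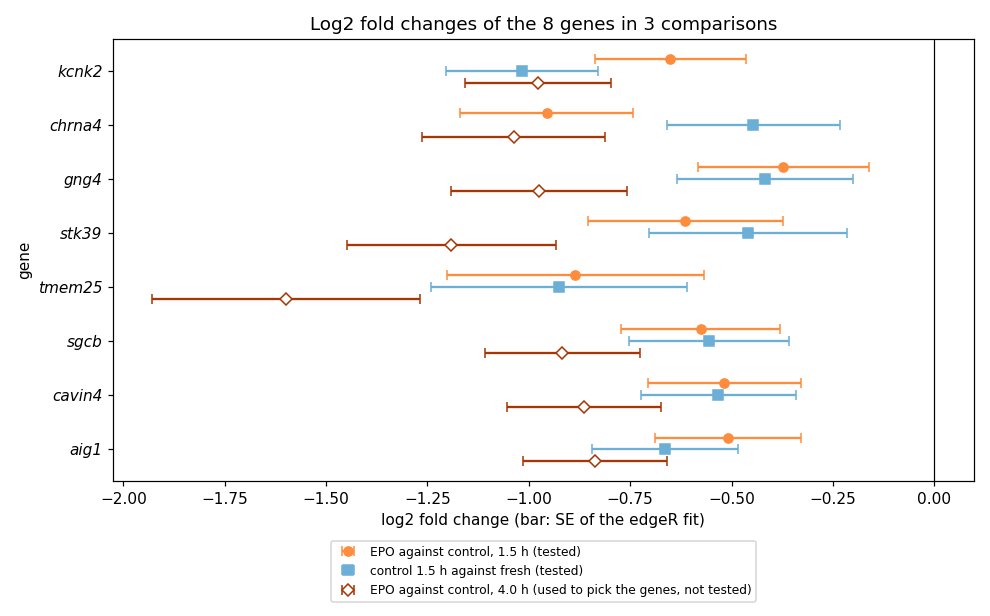
Log2 fold change of each gene (x axis) in EPO against control at 1.5 h, in control culture at 1.5 h against fresh cells, and in the contrast that picked the genes (open diamonds, not tested); bars are the SE of the edgeR fit. All 24 estimates are negative, and those at 4.0 h run from -1.60 to -0.84.

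The second comparison asked whether the genes changed when cells were put into culture without EPO, again in libraries other than those of the choosing contrast. The potassium channel gene kcnk2 fell from 270 ± 61.4 CPM in fresh cells to 135 ± 30.5 CPM after 1.5 h of control culture (SD, n = 3), or 2.02-fold. Its log2 fold change was -1.02 with an SE of 0.188 (adjusted p = 0.00758 by edgeR's quasi-likelihood test). With EPO at the same time its level was 1.57-fold lower than in control culture, a difference that passed with the replicate block (edgeR adjusted p = 0.00422) and not without it (0.172). With the log2 library total as a covariate beside the block, the log2 fold change of this difference was -0.045 (edgeR unadjusted p = 0.891). In that fit 0 of the 8 genes and 6 of all 7678 genes were called. Its estimates for the 8 ran from -0.98 (chrna4) to 0.24 (gng4). Depth differed between the groups, so the parts of depth and EPO in this difference cannot be told apart in full. The gene kcnk2 was the 1 of the 8 called lower in culture, against 17 of 7678 genes (0.221%). The other 7 had log2 fold changes between -0.93 for tmem25 and -0.42 for gng4 and did not pass (edgeR adjusted p between 0.132 and 0.573). All 8 estimates were negative with a median of -0.54, where 48.6% of all genes were negative with a median of 0.014. The control libraries lay wholly below the fresh ones for 5 of the 8 genes (kcnk2, stk39, tmem25, cavin4 and aig1), against 7.28% of all genes. This comparison shares its control libraries with EPO against control at 1.5 h, so the estimates of the 2 comparisons are not independent.

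With the replicate block, aig1 passed as well (-0.64, adjusted p = 0.00498), as 2 of the 8 genes against 0.703% of all genes. The call of kcnk2 was lost without fresh replicate 1 (-0.81, edgeR adjusted p = 0.0547) and without control replicate 2 (-0.84, edgeR adjusted p = 0.110). Fresh replicate 1 was the library with the fewest counts and the highest kcnk2 level. Without it the log2 fold changes of chrna4, tmem25, sgcb and aig1 became -0.16, -0.52, -0.32 and -0.38. Without control replicate 1, those of chrna4 and gng4 became -0.29 and -0.22.

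Contrasts that use a 4.0 h group share libraries with the choosing contrast itself and were not tested. In control culture at 4.0 h the genes lay at log2 fold changes of -0.58 (kcnk2) to 0.050 (gng4) against fresh cells, with a median of -0.34. The control libraries at 4.0 h lay wholly below the fresh ones for kcnk2 and cavin4, 2 of the 8, beside 5.73% of all genes. With EPO at 4.0 h the values against fresh cells were -1.83 (tmem25) to -0.93 (gng4), with a median of -1.36, and the groups did not overlap for any of the 8, beside 10.7% of all genes lower without overlap. Between 1.5 h and 4.0 h all 8 genes had higher means in control culture, by a median of 0.21 on the log2 scale, without overlap for 1 of the 8, kcnk2, beside 4.42% of all genes. With EPO the fitted log2 fold change from 1.5 h to 4.0 h had a median of -0.14, with 6 genes lower and 2 higher (kcnk2 and chrna4). The fitted value of chrna4 was 0.020, while its mean CPM was 33.4 at 1.5 h and 33.3 at 4.0 h. The gene sgcb was lower without overlap, 1 of the 8 beside 5.4% of all genes. The EPO value at 4.0 h was larger in size than that at 1.5 h for each of the 8 genes, but the choice favours 4.0 h, and the difference was not tested.

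Library depth moved with these genes. Over the 15 libraries, the Spearman correlation between a gene's log2 CPM and the library's total counts lay between -0.78 (kcnk2) and -0.60 (gng4), against a median of 0.05 over 8939 genes. The raw counts of the 8 genes spanned between 2.89-fold (aig1, 277 to 801) and 6.14-fold (tmem25, 14 to 86) over the libraries, and library totals spanned 4.78-fold. The libraries share groups and replicate numbers, so these correlations are descriptions. They also include the libraries of the choosing contrast. The choice set low levels with EPO at 4.0 h, a group deeper on average than its control, and so contributes to the negative values. Within groups the relation was weaker, with correlations of the deviations from the group means between -0.50 (aig1) and 0.20 (gng4).

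At 1.5 h, EPO replicate 1 (3904765 counts) had fewer counts than control replicate 2 (4472724 counts), and all 8 genes were lower in it, as were 51.5% of all genes. This library pair was singled out after the values were seen, and its libraries carry different replicate numbers. For 7 of the 8 genes its order follows from the separation of the groups at 1.5 h given above. Only gng4 (36.7 against 42.9 CPM) could have differed, so nothing is read from this pair about depth. At 4.0 h the order of the EPO and control libraries was fixed by the choice of the genes and likewise says nothing about depth.

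A fit with the log2 library total as a covariate, added after seeing the data, moved the estimates at 1.5 h by unequal amounts. For EPO against control the log2 fold change of chrna4 became -0.89 (adjusted p = 0.151) and that of stk39 -0.65 (adjusted p = 0.622). That of kcnk2 became -0.17 (adjusted p = 0.918), and those of aig1 and cavin4 -0.18 and -0.20 (edgeR adjusted p of 0.913 and 0.921). None of the 8 passed in edgeR's test with this covariate, and 1 had an unadjusted p below 0.05. In that fit 59 of all 7678 genes were called, 9 of them lower, where 41 were called without the covariate, 8 of them lower. For control culture against fresh cells kcnk2 became -0.56 (edgeR adjusted p = 0.351), again with 0 of the 8 passing and 1 at an unadjusted p below 0.05. At 4.0 h the described values with the covariate were -1.45 to -0.63, with a median of -0.92. The EPO libraries were deeper on average at both times and the fresh libraries shallower, so the parts of depth and group in these levels cannot be told apart in full.

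**Figure D3:**
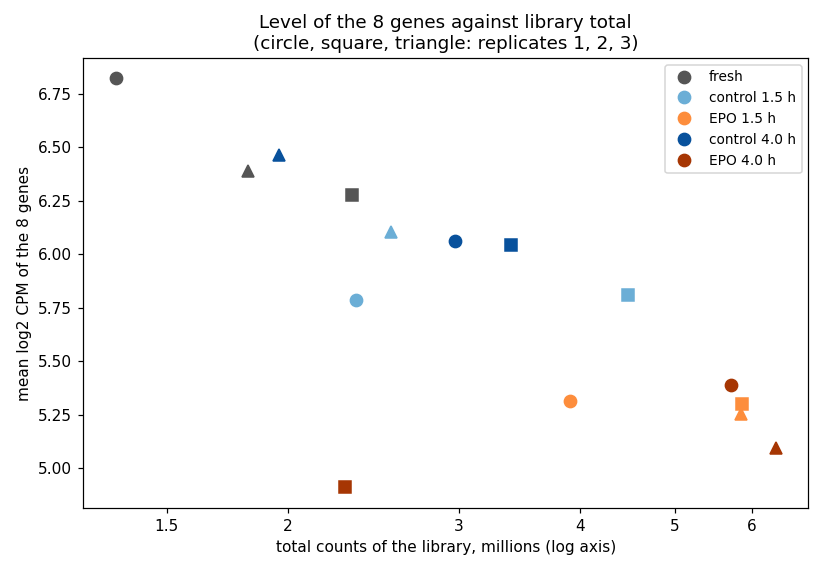
Mean log2 CPM of the 8 genes (y axis) against the total counts of each library (x axis, log scale); colours mark groups and symbols replicates. The level is highest in fresh replicate 1 (1329340 counts) and tends to be lower at higher totals, while EPO replicate 2 at 4.0 h, one of the libraries that chose the genes, has 2287764 counts and the lowest level.

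The levels of the 8 genes were correlated across libraries. The 28 pairwise Pearson correlations of log2 CPM over the 15 libraries lay between 0.79 and 0.96, to which the choice of genes with a shared pattern contributes. In deviations from the group means, which the choice did not set directly, 27 of the 28 pairs were positive, with a median of 0.46. Pairs among 3829 genes that carry a symbol and reach a mean of 10 CPM had a median of 0.00261 and a middle range of -0.25 to 0.26. Over the 15 libraries the pair kcnk2 and cavin4 was closest (0.84), followed by chrna4 and tmem25 (0.77), and the values of the kinase gene stk39 lay between -0.082 and 0.30. In the 9 fresh and 1.5 h libraries, which were not compared in the choosing contrast, 24 of the 28 pairs were positive and the median was 0.46. There chrna4 and tmem25 were closest (0.87), followed by kcnk2 and cavin4 (0.82), and the values of stk39 lay between -0.35 with chrna4 and 0.21 with sgcb. The range over all pairs given above is for the 15 libraries and does not apply to these 9, for which none was computed. Libraries share depth and replicate number, and no test was made of these correlations.

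**Figure D4:**
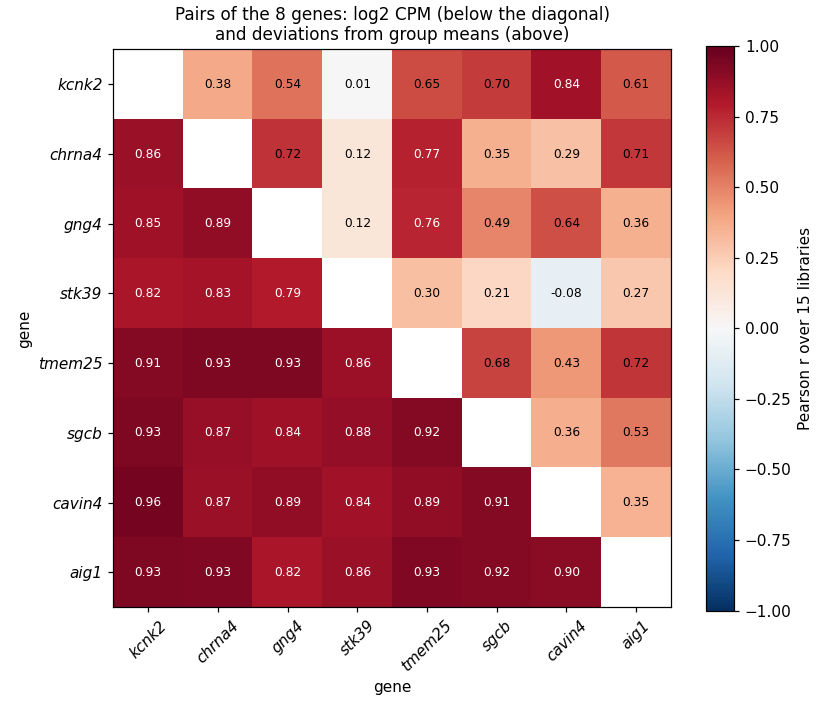
Pearson correlation over 15 libraries for each pair of the 8 genes, in log2 CPM below the diagonal and in deviations from group means above it; colour gives r. The values below the diagonal lie between 0.79 and 0.96, and the values of stk39 above it lie between -0.082 and 0.30.

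Genes of the same families and pathways were examined from 8 lists. These were tandem-pore potassium channels, nicotinic receptor subunits, G protein beta and gamma subunits, the WNK and SPAK pathway with its cotransporters, the sarcoglycan and dystrophin complex, caveolae, the aig1 family, and red cell ion and water transport. Without the 8 genes they held 108 genes, of which 97 were in the table and 31 had enough counts to be tested. At 1.5 h of EPO, 0 of the 31 passed by edgeR's quasi-likelihood test and 6 had an unadjusted p below 0.05, beside 545 of all 7678 genes. Of the 31, 14 were negative, with a median log2 fold change of 0.0053, near the -0.018 of all genes. The lists differed, with medians from -0.40 (nicotinic receptor subunits, 1 gene tested) to 0.90 (G protein subunits, 4 genes tested). The sodium pump subunit gene atp1b1 had 7.27 ± 2.74 CPM in control culture and 19.1 ± 2.23 CPM with EPO (SD, n = 3) and passed in DESeq2, in limma voom and with the replicate block, as the 1 such gene in each (log2 fold change 1.43 ± 0.362, SE; edgeR adjusted p = 0.0863 without the block and 0.0236 with it). In control culture against fresh cells 0 of the 31 passed by edgeR, DESeq2 or limma voom, and the median was 0.089. In edgeR's test 1 had an unadjusted p below 0.05, beside 729 of all 7678 genes.

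Single relatives are named here after their values were seen. The kinase gene oxsr1, which encodes OSR1, the close relative of SPAK, averaged 28.2 ± 2.46 CPM in control culture at 1.5 h and 28.2 ± 6.16 CPM with EPO (SD, n = 3). Its log2 fold change was 0.0050 ± 0.274 (adjusted p = 0.997, edgeR). Of the 7 tested genes of the WNK and SPAK list other than stk39, 5 had negative estimates with EPO, with a median of -0.27. Among them wnk4, a WNK kinase gene, was at 53.2 ± 14.3 CPM in control culture and 38.0 ± 6.05 CPM with EPO (log2 fold change -0.49 ± 0.229, SE, edgeR adjusted p = 0.669). The beta subunit gene gnb1, a partner of gamma subunits, was at 29.2 ± 11.3 and 47.5 ± 7.76 CPM (log2 fold change 0.70 ± 0.255, SE, edgeR adjusted p = 0.407). The gamma subunit gene gng5 was at 105 ± 21.8 and 97.1 ± 11.9 CPM (-0.12 ± 0.188, edgeR adjusted p = 0.973). Its estimate was the 1 negative value among the 4 tested relatives of gng4 in this list. The gamma subunit gene gng10 was higher with EPO without overlap, at 1.76 ± 0.395 and 6.17 ± 1.34 CPM (1.76 ± 0.651, edgeR adjusted p = 0.432). Its control level was low, where 3 counts corresponded to 0.748 to 1.31 CPM in the control libraries at 1.5 h. The share of all genes higher without overlap was not counted. The estimate of gng12, the other tested gamma subunit gene, was positive, and its groups overlapped (edgeR adjusted p = 0.831). The potassium channel gene kcnk4 had 3.44 ± 1.87 and 4.35 ± 1.24 CPM, and the SE of its log2 fold change (0.562) was close to the size of that of kcnk2, so a change of that size was not detectable at this depth. In fresh cells kcnk4 had 9.87 ± 4.20 CPM. Its log2 fold change in control culture at 1.5 h against fresh cells was -1.47 ± 0.577 (SE, edgeR adjusted p = 0.389). That of kcnk13, the other tested channel gene of this list, was -0.78 ± 0.777 (SE, edgeR adjusted p = 0.831). Partners of the sarcoglycan and caveolar genes were scarce as well, with sgcg at 2.59 ± 1.91 and cavin2 at 2.99 ± 1.60 CPM in control culture at 1.5 h (SD, n = 3). Of the nicotinic receptor subunits other than chrna4, chrnb3 alone had enough counts to be tested (-0.40 ± 0.665, edgeR adjusted p = 0.973).

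The genes whose log2 CPM over the 15 libraries was most like the mean pattern of the 8 were, among 3829 candidates, ermp1 (r = 0.98), dsg1 (0.98), asb4 (0.96), bmerb1 (0.95) and slc25a23 (0.95). The endoplasmic reticulum metallopeptidase gene ermp1 averaged 124 CPM in fresh cells, and in control and EPO culture 88.6 and 71.2 CPM at 1.5 h, and 103 and 64.7 CPM at 4.0 h. The gene asb4, which encodes an ankyrin repeat and SOCS box protein, averaged 24.9 CPM in fresh cells, and in control and EPO culture 16.3 and 12.4 CPM at 1.5 h, and 19.7 and 12.4 CPM at 4.0 h. These genes share the libraries and their depths with the 8 genes. The search took the highest of 3829 values and included the libraries of the choosing contrast, so nothing is read from the size of r.

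Markers of other blood cells were examined beside the 8 genes. The summed level of T and NK cell markers (7 of 12 listed genes in the table, cd8b at 0 counts) was 15.5 to 21.2 CPM in fresh cells. It was 8.23 to 17.9 and 6.75 to 11.5 CPM in control and EPO culture at 1.5 h, with overlap. At 4.0 h it was 16.1 to 18.9 and 7.58 to 13.9 CPM, with the EPO libraries below the control libraries. The same order of the 8 genes at 4.0 h was set by their choice, so nothing is read from the likeness. Most of the summed level was the perforin gene prf1, the 1 marker of this list with enough counts to be tested. It had 14.3 ± 2.85 CPM in fresh cells, and 10.2 ± 3.97 and 6.41 ± 1.90 CPM in control and EPO culture at 1.5 h (SD, n = 3). The log2 fold change of prf1 was -0.64 for EPO against control at 1.5 h (edgeR adjusted p = 0.842). For control culture against fresh cells it was -0.52 (edgeR adjusted p = 0.760), and the groups overlapped in both comparisons. The summed granulocyte and monocyte markers (12 of 14 in the table) were 315 to 509 CPM in fresh cells, in control and EPO culture at 1.5 h 238 to 328 and 229 to 330 CPM, and 244 to 337 and 228 to 370 CPM at 4.0 h. For EPO against control at 1.5 h, 4 of the 9 tested markers of this list had negative estimates, with a median of 0.065. Among them alox5ap had 116 ± 5.93 CPM in control and 92.2 ± 4.04 CPM in EPO culture (SD, n = 3). It was lower without overlap, as were 6.81% of all genes (log2 fold change -0.33, edgeR adjusted p = 0.704). The thrombocyte markers (8 of 12 in the table) ran from 366 to 487 CPM and the B cell markers (8 of 8) from 38.4 to 74.1 CPM, with overlap between EPO and control at both times for both lists. Single markers were also compared between control culture at 1.5 h and fresh cells. Of the tested markers, 9 of 9 of the granulocyte and monocyte list (median log2 fold change -0.59) and 4 of 5 of the thrombocyte list (median -1.27) had negative estimates. The exception in the thrombocyte list was tubb1 (log2 fold change 0.058, edgeR adjusted p = 0.955). From fresh cells to control culture the thrombocyte integrin gene itgb3 went from 21.0 ± 8.72 to 5.08 ± 1.77 CPM (SD, n = 3), with an edgeR adjusted p of 0.0535 without the replicate block and 0.0085 with it. The phagocyte oxidase gene cybb had 18.4 ± 5.39 and 5.36 ± 3.30 CPM (edgeR adjusted p of 0.153 without the block and 0.0244 with it). Over the 15 libraries the Pearson correlation of the summed markers with the mean level of the 8 genes was 0.67 for the T and NK cell list, 0.61 for the granulocyte and monocyte list and -0.28, 0.40 and -0.062 for the thrombocyte, erythroid and B cell lists. These libraries include those of the choosing contrast, whose order in the 8 genes was set by the choice, so nothing is read from these correlations. With EPO at 1.5 h the alpha globin gene hba1 passed with the block alone, at a log2 fold change of -0.18 (edgeR adjusted p of 0.851 without the block and 0.0301 with it). The part of these cells in the levels of the 8 genes was not tested.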

How the data were processed

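Total RNA went into Lasy-Seq v1.1 libraries (per the labels' protocols). The authors deposited raw whole-number counts per gene, 1 column per library. Tools listed in the submitters' processing notes are Salmon, R 4.3.2, BWA 0.7.17-r1188 and fastp 0.21.0. Their roles, the annotation, strand and build were not given in the sources used here.

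The quasi-likelihood fits used edgeR 4.0.16 under R 4.3.3 (filterByExpr, TMM, robust F test, two-sided, Benjamini-Hochberg adjustment over all genes tested, threshold 0.05). The genes and lists were chosen with earlier results of these data known. The tested comparisons were therefore fitted on the 9 fresh and 1.5 h libraries (7678 genes, 6 residual degrees of freedom), and contrasts with a 4.0 h group were described from a fit on all 15 (8939 genes). All 8 genes passed the filter on low counts. The SE is the size of the log2 fold change divided by the square root of F. Log2 CPM used a prior count of 2.

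The rule for names beyond the 8 genes took list members past the threshold (there were 0), the 5 genes most alike in pattern and the genes at the edge of the choosing contrast. List members that passed with the replicate block alone (atp1b1, itgb3, cybb and hba1) and the other relatives and markers were named after their values were seen. Between libraries of a group, counts differed beyond sampling noise (chi-square divided by its degrees of freedom, 4.61 to 12.6). Deviations from the group means, over genes with a mean log2 CPM above 5, correlated at 0.280 to 0.626 in the 30 pairs with the same replicate number and at -0.391 to 0.0484 in the 60 others. Deviations cancel within a group of 3 libraries, so the values of the 60 pairs are not separate from those of the 30. In the fits with the replicate block the numbers were taken to pair the libraries, a pairing that comes from the data. The main fits left the block out, and the calls of both are given. DESeq2 1.42.0 and limma 3.58.1 (voom) were among the alternatives.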

Additional observations from a re-analysis of the deposited data

How the results depend on the processing

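Over 17 alternatives for each gene in the 2 tested comparisons, all estimates stayed negative except those of gng4 and cavin4 with the replicate block and the log2 library total together, a fit added after seeing the data. There they were 0.24 and 0.15 for EPO against control and 0.17 and 0.084 for control culture against fresh cells. The block alone, with the pairing of replicate numbers, called 3 and 2 of the 8 genes in these comparisons, and 111 and 107 of all genes in place of 41 and 32. Block and total together called 0 of the 8 by edgeR (1 and 0 at an unadjusted p below 0.05) and 6 and 10 of all genes, and the total alone called 0 of the 8 (1 and 1 at an unadjusted p below 0.05). For EPO against control, the total alone called 59 of all genes. Leaving out 1 library gave 0 to 1 of the 8, with 3 to 8 at an unadjusted p below 0.05, and 17 to 42 of all genes for EPO or 12 to 27 for culture. For EPO, all genes called were 65 with the DESeq2 Wald test, 72 with limma voom and 72 without a filter. For culture they were 63 with DESeq2 and 77 without a filter. The cause of these differences was not tested. The adjusted p of chrna4 with EPO passed in 10 of 17 alternatives, and that of kcnk2 in culture in 13 of 17. The alternatives that passed include the DESeq2 Wald test and limma voom beside edgeR fits. At 14 to 86 counts per library, tmem25 is the gene whose precision depth limits most.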
